A study of Arabidopsis thaliana with 12 samples.

Results

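Small secreted peptide genes were taken as every gene with a probe set of its own on the array whose symbol begins with RALFL, LCR, SCRL, CLE, EPFL or IDL followed by a number, or with PDF followed by a number, a dot and a number. This gave 30 of the 13356 genes measured: 11 RALFL, 8 LCR, 6 CLE and 5 PDF genes. No measured gene had an SCRL, EPFL or IDL symbol, and RefSeq holds no symbol of the EPFL form. RefSeq holds 184 Arabidopsis gene symbols that fit the same rule, and the genes measured here were 11 of 32 RALFL, 8 of 81 LCR, 6 of 30 CLE and 5 of 8 PDF symbols. No member had more than 1 probe set of its own. Transcript levels were measured on 12 arrays, 3 for each of 4 genotypes, in whole 14-day-old Arabidopsis seedlings. Col is the wild type, and every mutant is in this Columbia background. brm-1 is a T-DNA insertion null allele of BRM, an ATPase of SWI/SNF chromatin remodeling complexes, clf-29 is a T-DNA insertion allele of CLF, a methyltransferase that places the repressive mark H3K27me3, and brm-1 clf-29 carries both. Each mutated gene is represented by 1 allele, and the 3 arrays of a genotype are labelled as biological replicates. The comparisons ask which peptide genes differ when the remodeler, the methyltransferase or both are lost.

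Plants use short secreted peptides both as hormones and as weapons. RALF (RALFL) peptides are bound at the cell wall by receptor kinases of the FERONIA family and act on cell expansion, fertilization and immunity, and CLE peptides are bound by leucine-rich repeat receptor kinases and set the balance of stem cell division and differentiation in meristems and vascular tissue. PDF and LCR genes encode small cysteine-rich proteins, many of them defensins, the antimicrobial proteins whose best-known member in Arabidopsis, PDF1.2, is a standard reporter of the jasmonate and ethylene defence pathway.

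The symbols divide the defensins between both names: RefSeq gives a PDF name to 5 of the 8 LCR genes (LCR66 is PDF2.4, LCR67 is PDF1.1, LCR68 is PDF2.3, LCR69 is PDF2.2 and LCR72 is PDF2.6), and an LCR name to 4 of the 5 PDF genes (PDF1.2, PDF1.4, PDF2.1 and PDF2.5). Several of them lie together. On chromosome 2, LCR69, PDF2.1, LCR68 and LCR72 follow each other with 1 protein-coding gene between LCR69 and PDF2.1 and none between the others, and on chromosome 3 RALFL25 and RALFL26 are neighbours. The probe set of PDF1.2b is of the type that can bind several near-identical transcripts, so its values are uncertain as a measure of that gene alone.

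Values are log2 MAS5 signals, each difference is given ± the standard error from limma, and an adjusted p is limma’s p-value after Benjamini-Hochberg adjustment over all 13356 genes, with a gene called, and said to have risen or fallen, at an adjusted p under 0.05. A genotype mean under 4.71, the 95th percentile of the 27 bacterial control probe sets, is described as at background. Signals of different probe sets are not a measure of the relative RNA amounts of their genes. BRM and CLF were not among the genes with a named probe set, which left no check of the labelled genotypes through the mutated genes themselves. The replicate 3 arrays stood apart from the others in every genotype, with scores between -22.25 and -12.16 on the first principal component of the brighter genes (30.9% of the variance) against -5.76 to 21.44 for the other 8 arrays. Differences are therefore also given for replicates 1 and 2 and for replicate 3, and the values of a fit with the replicate number as a block are given where they change a call. Markers of green leaf (RCA and LHCB4.1, 2 of 7 measured) and of root (EXPA7, EXPA18 and PYK10, 3 of 7 measured) were above background on all 12 arrays, with LHCB4.1 between 14.19 and 14.59 and PYK10 between 13.50 and 14.28, and none of these 5 was called in any comparison. In whole seedlings, fewer cells of a type and less RNA per cell cannot be told apart.

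Of the 30 peptide genes, 17 were above background in all 4 genotypes, 6 in some of them and 7 in none, a share in none of 23.3% against 21.7% of all genes. The families differed in this: all 5 PDF genes were above background in all 4 genotypes, as were 7 of 11 RALFL genes, 3 of 6 CLE genes and 2 of 8 LCR genes (LCR68 and LCR69). The 7 genes at background throughout were RALFL25, RALFL28, LCR24, LCR59, LCR66, LCR80 and CLE40, and no fold is given for them. For CLE40, a regulator of stem cells in the root meristem, the 12 arrays ran from 1.74 to 4.87. RALFL26 and RALFL18, LCR67 and LCR72, and CLE21 and CLE27 crossed the background line between genotypes.

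**Figure D1:**
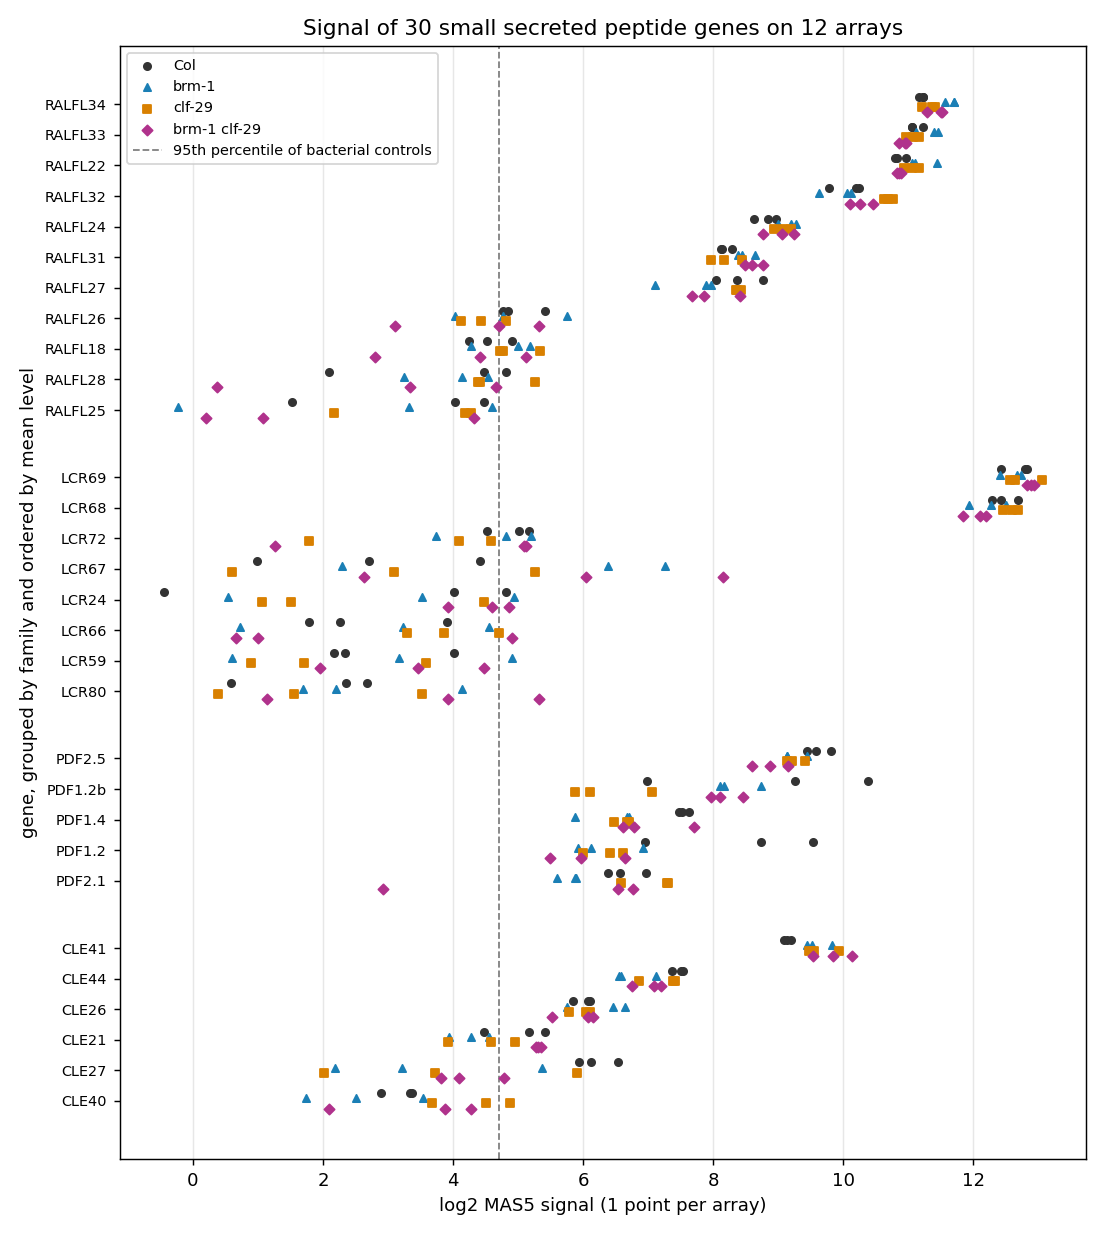
Log2 MAS5 signal (horizontal axis) of the 30 peptide genes, grouped by family, with 1 point for each of the 12 arrays, colour and shape marking the genotype, and the dashed line at the background percentile of 4.71. The arrays of RALFL34, LCR68, LCR69 and CLE41 lie close together and far right of the line, while those of most LCR genes scatter across several log2 units to its left.

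How far replicates of 1 genotype scattered followed the level. The SD between replicates, pooled over the genotypes, had a median of 0.21 among the 17 genes above background throughout and of 1.58 among the 7 at background, against 0.23 and 1.29 for all genes. It was 0.09 for RALFL34, 0.19 for LCR69 and 0.22 for CLE41. Among the genes above background throughout, 3 defensins had the widest spread, PDF2.1 with 1.11, PDF1.2b with 0.94 and PDF1.2 with 0.79. For PDF1.2 and PDF1.2b the wild type itself was the most variable genotype, with SDs of 1.32 and 1.73.

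**Figure D2:**
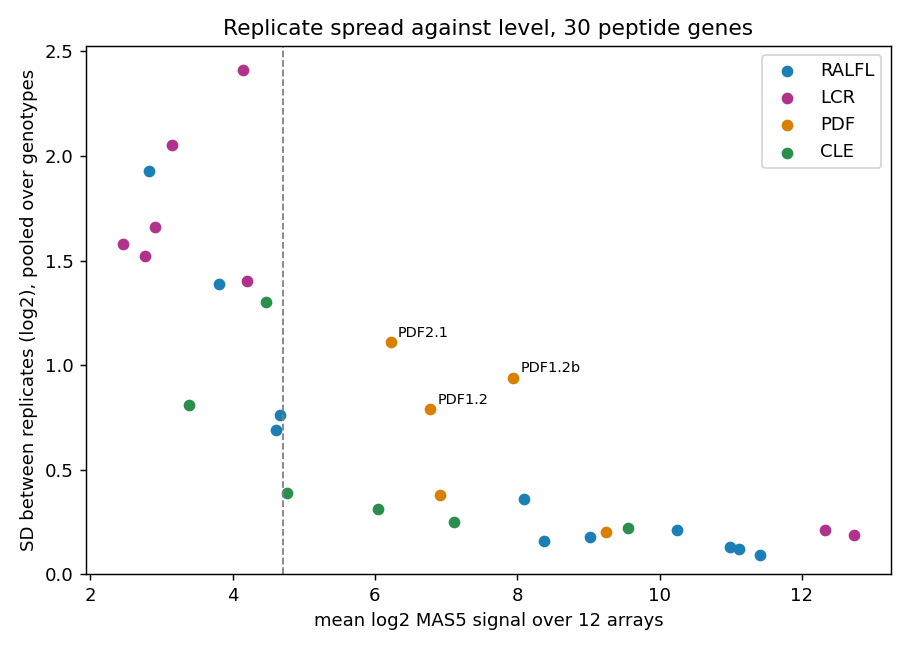
SD between replicates pooled over the 4 genotypes (vertical axis, log2) against the mean log2 signal over 12 arrays (horizontal axis), 1 point per peptide gene coloured by family, with the dashed line at the background percentile. Genes left of the line have SDs of 0.69 to 2.41, and the 3 labelled defensins lie above the other genes of similar level.

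Few of the peptide genes were called. Against Col, 1 of 30 was called in brm-1 (RALFL34, which rose), where 1.86% of all genes were called, 0 of 30 in clf-29, where 0.943% of all genes were called, and 3 of 30 in brm-1 clf-29 (CLE41, which rose, and PDF1.2 and PDF2.5, which fell), where 4.99% of all genes were called. In the contrasts of brm-1 clf-29 with clf-29 and with brm-1, no member was called, against 1.47% and 0.217% of all genes, and the interaction of both mutations gave 0 calls among all genes. The 3 comparisons with Col share the same 3 Col arrays. With an unadjusted p under 0.05 were 11, 7 and 6 members in brm-1, in clf-29 and in brm-1 clf-29 against Col, where 13.1%, 12.0% and 18.3% of all genes were, then 6 members in each of the comparisons of brm-1 clf-29 with a single mutant and 8 for the interaction, where 12.9%, 9.77% and 5.65% of all genes were. By the criterion of the study's methods, a 1.5-fold difference with no test, the counts were 11, 10 and 13 of 30 members against Col, beside 23.9%, 23.7% and 28.0% of all genes.

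Arrays that did not overlap between a mutant and Col were found for 12 members in brm-1 (5 higher, 7 lower, against 20.6% of all genes), 7 in clf-29 (3 higher, 4 lower, against 18.0%) and 10 in brm-1 clf-29 (4 higher, 6 lower, against 23.8%). Set against all 9 mutant arrays together, the 3 Col arrays did not overlap for 4 members, with CLE41 higher in the mutants and PDF1.2, PDF2.5 and CLE27 lower, where 4.04% of all genes were so separated. With the replicate number as a block, the calls against Col were 3 members in brm-1, 3 in clf-29 and 3 in brm-1 clf-29. Calls among all 13356 genes went up with the block as well, from 249, 126 and 667 to 638, 465 and 1395. Without the trend of variance on level, no member was called in any comparison. Calls among all genes against Col then went down to 90, 42 and 356.

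**Figure D3:**
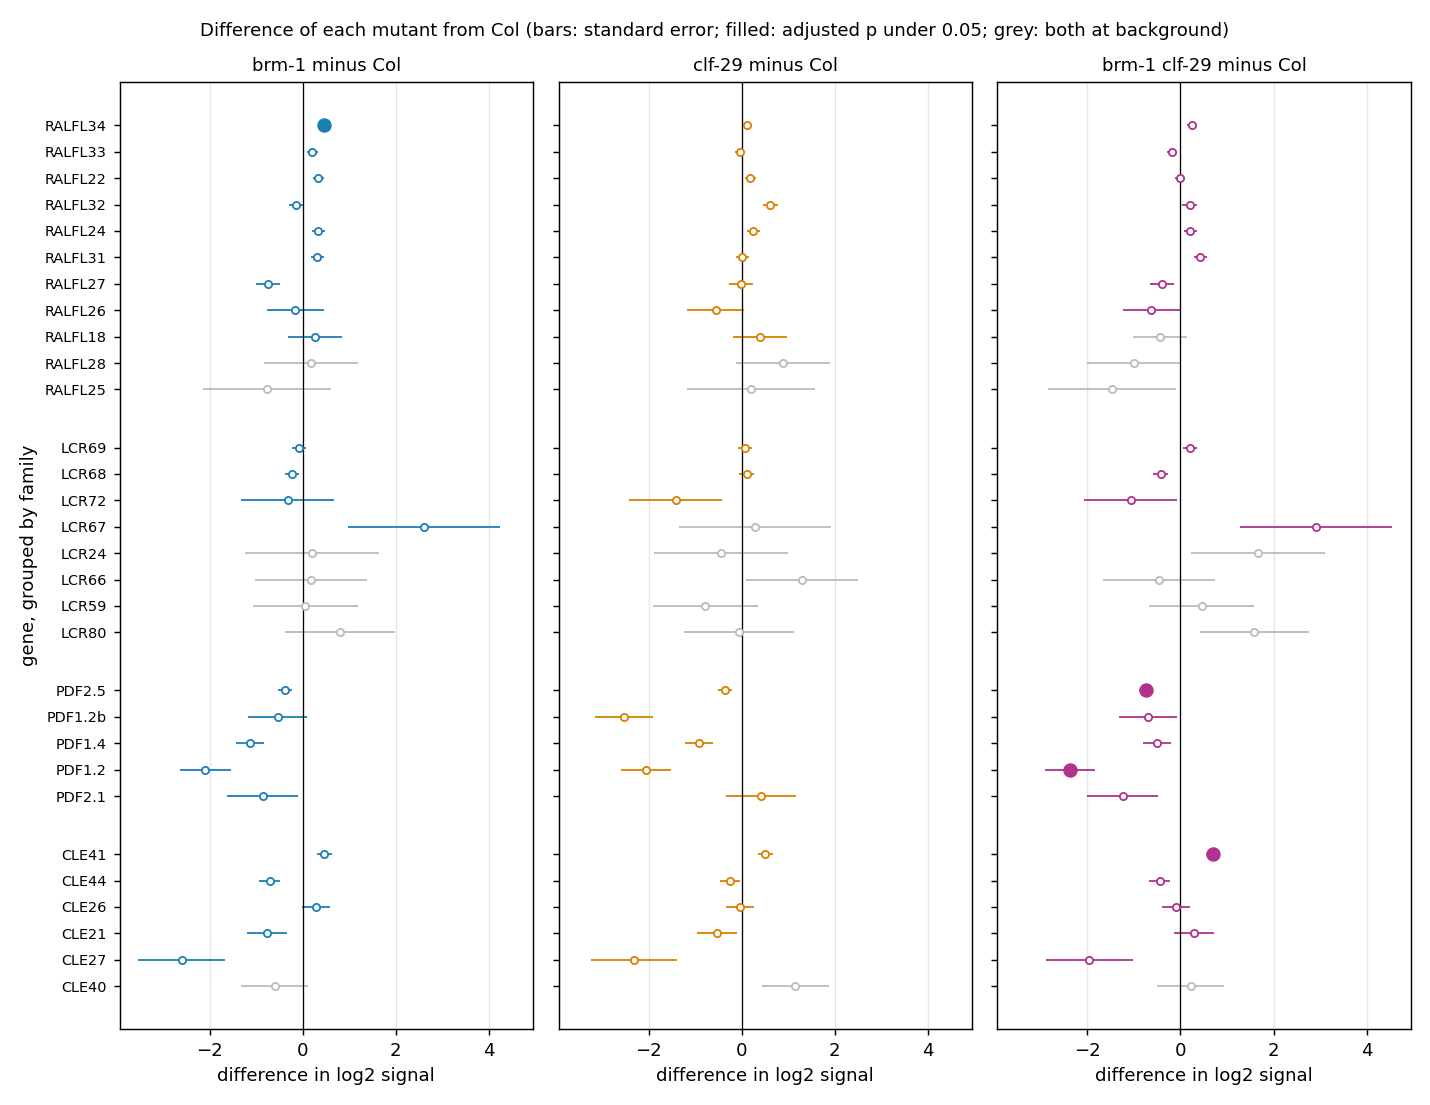
Difference in log2 signal of each mutant from Col (horizontal axis, 1 panel per mutant) for the 30 peptide genes, with bars of 1 standard error. Filled points have an adjusted p under 0.05 and grey points have both genotypes at background. The 5 PDF genes lie left of 0 in brm-1 and in brm-1 clf-29, and 4 of the 5 in clf-29.

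The genes whose RefSeq symbol is PDF had lower means than Col in nearly every comparison with it. All 5 had a lower mean in brm-1, with a median difference of -0.86, and in brm-1 clf-29, with a median of -0.74. In clf-29, 4 of 5 were lower, with a median of -0.92. Over all genes the medians were -0.04 in brm-1, 0.00 in clf-29 and -0.02 in brm-1 clf-29. Of the genes named PDF, only PDF1.2 and PDF2.5 were called, both in brm-1 clf-29. The LCR genes that also carry a PDF name were not called and shared no direction. In brm-1, in clf-29 and in brm-1 clf-29, LCR67 differed from Col by 2.61, 0.29 and 2.91, and LCR72 by -0.32, -1.41 and -1.07. The values were -0.07, 0.07 and 0.20 for LCR69, -0.23, 0.11 and -0.42 for LCR68, and 0.18, 1.30 and -0.46 for LCR66. Of these, LCR66, LCR67 and LCR72 were at background in some or all genotypes. The direction of PDF1.2b in the genotypes with the brm-1 mutation rested on replicate 3: over replicates 1 and 2 it differed from Col by 0.02 in brm-1 and by 0.09 in brm-1 clf-29, and in replicate 3 by -1.64 and -2.28. For PDF2.1 in brm-1 clf-29 the difference was -2.05 over replicates 1 and 2 and 0.38 in replicate 3.

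PDF1.2 (AT5G44420, chromosome 5), the jasmonate and ethylene reporter, measured 6.95, 8.74 and 9.53 in Col replicates 1, 2 and 3. It measured 6.92, 6.12 and 5.92 in brm-1, 6.0, 6.62 and 6.42 in clf-29, and 6.65, 5.49 and 5.97 in brm-1 clf-29. The 9 mutant arrays lay together, all of them below the lowest Col array, and the size of the difference depended on which Col array it was set against. PDF1.2 fell in brm-1 clf-29 by 2.37 ± 0.54, to 0.193 of the Col signal, with an adjusted p of 0.0251. The difference was -1.77 over replicates 1 and 2, where it did not pass (adjusted p = 0.0664), and -3.56 in replicate 3. It also did not pass where only those 2 genotypes were fitted, with an adjusted p of 0.0725. The call was lost without Col replicate 2 or 3 or brm-1 clf-29 replicate 2 or 3, with differences of -2.20, -1.81, -2.10 and -2.34 and adjusted p-values of 0.105, 0.0914, 0.0946 and 0.0509.

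In the single mutants PDF1.2 differed from Col by nearly as much, -2.09 ± 0.54 in brm-1 and -2.06 ± 0.54 in clf-29, with adjusted p-values of 0.0822 and 0.119. Over replicates 1 and 2 the differences were smaller, -1.32 in brm-1 (adjusted p = 0.251) and -1.54 in clf-29 (0.165). In replicate 3 they were -3.61 and -3.11. With the replicate block the adjusted p was 0.0471 in brm-1, which passed, and 0.0589 in clf-29. Without Col replicate 1, the array with the low Col value, both passed (-2.81 with an adjusted p of 0.00949 in brm-1, -2.79 with 0.0155 in clf-29). brm-1 clf-29 differed from brm-1 by -0.28 (95% interval -1.46 to 0.89) and from clf-29 by -0.31 (-1.49 to 0.87), so no further difference was detectable with both mutations. The interaction was 1.78 ± 0.77 with an adjusted p of 0.862.

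PDF2.5 (AT5G63660, chromosome 5), a defensin linked to cadmium binding, measured 9.58, 9.45 and 9.81 in Col, 9.14, 9.44 and 9.14 in brm-1, 9.13, 9.22 and 9.42 in clf-29, and 9.15, 8.60 and 8.87 in brm-1 clf-29. All 9 mutant arrays were below the 3 Col arrays, and the brm-1 and clf-29 arrays covered nearly the same range. PDF2.5 fell in brm-1 clf-29 by 0.74 ± 0.15, to 0.599 of Col, with an adjusted p of 0.016. It differed by -0.37 ± 0.15 in brm-1 and by -0.36 ± 0.15 in clf-29, with adjusted p-values of 0.314 and 0.376, and the interaction contrast gave no call. The fall in brm-1 clf-29 was -0.64 over replicates 1 and 2 and -0.94 in replicate 3. It lost its call without Col replicate 1 (-0.76, adjusted p = 0.051), Col replicate 3 (-0.64, 0.0665) or brm-1 clf-29 replicate 2 (-0.60, 0.0608).

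PDF1.4 (AT1G19610, chromosome 1), another defensin, measured 7.48, 7.63 and 7.52 in Col, 6.67, 6.70 and 5.88 in brm-1, 6.68, 6.48 and 6.71 in clf-29, and 7.71, 6.62 and 6.79 in brm-1 clf-29. Both single mutants lay wholly below Col, while replicate 1 of brm-1 clf-29 was above every Col array. The differences were -1.13 ± 0.30 in brm-1 (adjusted p = 0.0861), -0.92 ± 0.30 in clf-29 (0.208) and -0.50 ± 0.30 in brm-1 clf-29 (0.415). With the replicate block, brm-1 passed with an adjusted p of 0.0351, and it also passed without brm-1 clf-29 replicate 1, with 0.0429. The brm-1 difference was -0.87 over replicates 1 and 2 and -1.64 in replicate 3.

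PDF1.2b (AT2G26020, chromosome 2) is described because it was called with the replicate block, and was chosen after its values were seen. It measured 6.99, 9.26 and 10.38 in Col, 8.11, 8.17 and 8.74 in brm-1, 7.06, 5.88 and 6.11 in clf-29, and 8.46, 7.96 and 8.10 in brm-1 clf-29. The clf-29 arrays were below those of both genotypes with the brm-1 mutation, and they overlapped with Col through its low replicate 1, the array on which PDF1.2 was also lowest within Col. The difference of clf-29 from Col was -2.53 ± 0.63, with an adjusted p of 0.0978, or 0.0357 with the replicate block. It was -1.65 over replicates 1 and 2 and -4.27 in replicate 3. brm-1 clf-29 was higher than clf-29 by 1.82 ± 0.63 with an adjusted p of 0.223, a difference called only without Col replicate 1 among the fits that leave out 1 array.

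PDF2.1 (AT2G02120, chromosome 2) measured 6.97, 6.57 and 6.39 in Col, 5.89, 5.87 and 5.60 in brm-1, and 7.31, 6.58 and 7.29 in clf-29. In brm-1 clf-29 it measured 2.92, 6.53 and 6.77, so 1 array was below the background line while the other pair lay within the Col range. The 3 brm-1 arrays were all below Col, with a difference of -0.86 ± 0.76 and an adjusted p of 0.723. The spread behind this standard error is pooled over the genotypes and includes the low array of brm-1 clf-29.

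**Figure D4:**
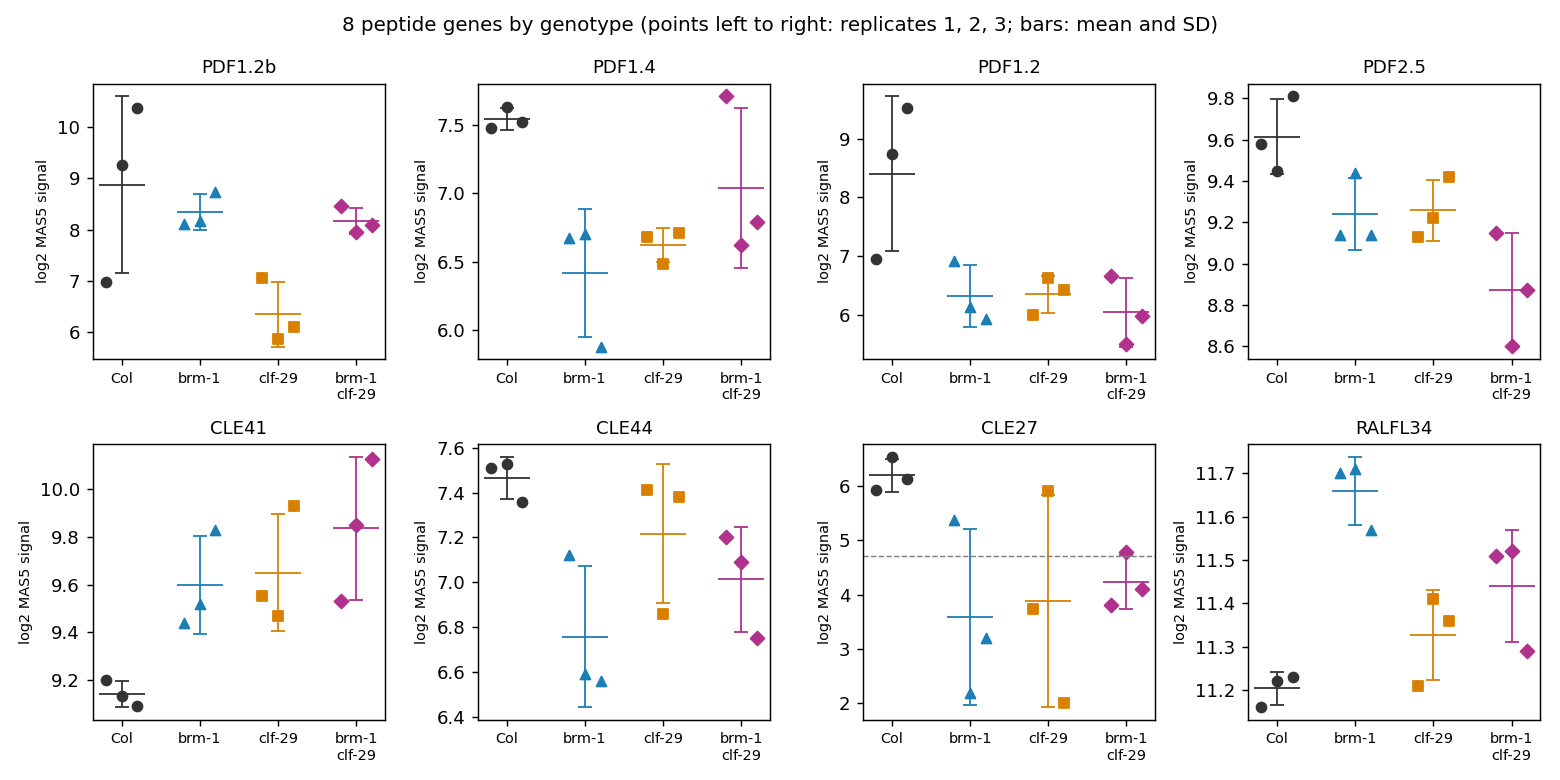
Log2 MAS5 signal (vertical axes, each scaled to its gene and not starting at 0) of 8 peptide genes in the 4 genotypes, with points for replicates 1, 2 and 3 from left to right and bars for the mean and SD. PDF1.2 in Col spans 6.95 to 9.53 while all mutant arrays lie at 6.92 or less, and every mutant array of CLE41 lies above the 3 Col arrays.

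Of the CLE genes, CLE41 and CLE44 encode precursors of the same peptide, TDIF, which is made in the phloem, is bound by the receptor kinase PXY and keeps vascular stem cells dividing. The mean of CLE41 was above that of Col in all 3 mutants and that of CLE44 was below it, and only CLE41 in brm-1 clf-29 was called. The family as a whole had no common direction, with 2, 2 and 3 of its 6 genes above Col in brm-1, in clf-29 and in brm-1 clf-29 and medians of -0.66, -0.14 and 0.06.

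CLE41 (AT3G24770, chromosome 3) measured 9.20, 9.13 and 9.09 in Col, 9.44, 9.52 and 9.83 in brm-1, 9.55, 9.47 and 9.93 in clf-29, and 9.53, 9.85 and 10.13 in brm-1 clf-29. The Col arrays were close together and below every mutant array, and replicate 3 was the highest array in each mutant and the lowest in Col. CLE41 rose in brm-1 clf-29 by 0.70 ± 0.16, to 1.62 times Col, with an adjusted p of 0.0286. The rise was 0.52 over replicates 1 and 2 and 1.04 in replicate 3. It was no longer called without any 1 of the 3 Col arrays or without brm-1 clf-29 replicate 2 or 3, with differences between 0.55 and 0.73 and adjusted p-values between 0.0736 and 0.097. In brm-1 the difference was 0.46 ± 0.16 and in clf-29 0.51 ± 0.16, with adjusted p-values of 0.238 and 0.208, and with the replicate block clf-29 passed with 0.0409.

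CLE44 (AT4G13195, chromosome 4) measured 7.51, 7.53 and 7.36 in Col, 7.12, 6.59 and 6.56 in brm-1, 7.41, 6.86 and 7.38 in clf-29, and 7.20, 7.09 and 6.75 in brm-1 clf-29. The arrays of brm-1 and of brm-1 clf-29 were below those of Col, and those of clf-29 overlapped with them. The differences were -0.71 ± 0.22 in brm-1, -0.25 ± 0.22 in clf-29 and -0.45 ± 0.22 in brm-1 clf-29, and their adjusted p-values were 0.155, 0.733 and 0.305. The clf-29 difference rested on replicate 2, being -0.07 without clf-29 replicate 2 and 0.02 in replicate 3.

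CLE44 and CLE27 are the members that the study lists among genes with more H3K27me3 in brm-1 than in Col, a list drawn from separate chromatin data. The list holds 258 genes, and the share of all measured genes on it was not counted. Neither member is on the study's list of gains that depend on CLF. CLE27 (AT3G25905, chromosome 3) measured 5.93, 6.53 and 6.12 in Col, 5.37, 2.19 and 3.21 in brm-1, 3.73, 5.90 and 2.01 in clf-29, and 3.81, 4.79 and 4.1 in brm-1 clf-29. Every mutant array was below every Col array, narrowly for clf-29 replicate 2, and the mean of each mutant was at background. The Col mean was 2.80 times the background percentile, which bounds what can be said of the size. The differences of -2.60 ± 0.93, -2.31 ± 0.93 and -1.96 ± 0.93 in brm-1, in clf-29 and in brm-1 clf-29 had adjusted p-values of 0.238, 0.34 and 0.295. The difference in brm-1 clf-29 passed only where those 2 genotypes were fitted alone, with an adjusted p of 0.0431.

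Of the remaining CLE genes, CLE26 had values between 5.53 and 6.65 on the 12 arrays and differed from Col by 0.28, -0.03 and -0.09. CLE21 was near background, with means of 5.02 in Col, 4.26 in brm-1, 4.49 in clf-29 and 5.31 in brm-1 clf-29. Its 3 brm-1 clf-29 arrays, at 5.35, 5.28 and 5.30, were above all 6 arrays of the single mutants, with adjusted p-values of 0.447 against brm-1 and 0.472 against clf-29. They overlapped with Col, which measured 5.42, 4.47 and 5.17. The CLE21 pattern was described after its values were seen, and the share of all genes with it was not counted.

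Among the RALFL genes, the 7 that were above background in all genotypes differed from Col by less than 0.75 in every mutant, and their means moved in both directions. The medians over all 11 genes were 0.21, 0.19 and -0.19 in brm-1, in clf-29 and in brm-1 clf-29. Over only the members above background they were 0.26, 0.12 and 0.10, so the negative median in brm-1 clf-29 rested on genes at background. Over all genes the medians were -0.04, 0.00 and -0.02. In brm-1, RALFL34, RALFL22, RALFL24 and RALFL31 had arrays wholly above Col and RALFL27 wholly below. Of these only RALFL34 was called.

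RALFL34 (AT5G67070, chromosome 5), whose peptide acts in lateral root initiation and is bound by the receptor kinase THESEUS1, measured 11.16, 11.22 and 11.23 in Col and 11.70, 11.71 and 11.57 in brm-1. It measured 11.21, 11.41 and 11.36 in clf-29 and 11.51, 11.52 and 11.29 in brm-1 clf-29. The brm-1 arrays were the highest of all 12, the brm-1 clf-29 arrays were above Col and below brm-1, and clf-29 overlapped with Col. RALFL34 rose in brm-1 by 0.46 ± 0.10, to 1.37 times Col, with an adjusted p of 0.032, and the rise was 0.52 over replicates 1 and 2 and 0.34 in replicate 3. It was not called after quantile normalization (0.39, adjusted p = 0.063), without any 1 of the 3 Col arrays, or without brm-1 replicate 1 or 2, with differences between 0.43 and 0.47 and adjusted p-values between 0.0816 and 0.137. In brm-1 clf-29 it differed from Col by 0.24 ± 0.10 (adjusted p = 0.201) and from brm-1 by -0.22 ± 0.10 (0.482).

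RALFL32 (AT4G14010, chromosome 4) measured 10.19, 10.25 and 9.78 in Col, 10.06, 10.12 and 9.62 in brm-1, 10.62, 10.77 and 10.69 in clf-29, and 10.10, 10.46 and 10.26 in brm-1 clf-29. The 3 clf-29 arrays were above the other 9. The difference of clf-29 from Col was 0.62 ± 0.16, with an adjusted p of 0.103, or 0.0128 with the replicate block. It was 0.47 over replicates 1 and 2, where it passed with 0.043, and 0.91 in replicate 3. It also passed without brm-1 replicate 3, with 0.0489.

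RALFL27 (AT3G29780, chromosome 3) measured 8.77, 8.36 and 8.04 in Col, 7.97, 7.89 and 7.10 in brm-1, 8.37, 8.35 and 8.43 in clf-29, and 7.86, 7.68 and 8.42 in brm-1 clf-29. The brm-1 arrays were all below Col, and those of the other mutants overlapped with it. The difference in brm-1 was -0.74 ± 0.26 with an adjusted p of 0.219, and it was -0.46 without brm-1 replicate 3. Within replicates 1 and 2 alone RALFL27 passed in brm-1 (-0.64, adjusted p = 0.0452) and in brm-1 clf-29 (-0.80, adjusted p = 0.00762). In replicate 3 it differed from Col by -0.94 in brm-1 and by 0.38 in brm-1 clf-29, and over all 3 replicates the brm-1 clf-29 difference was -0.40 ± 0.26 with an adjusted p of 0.462.

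RALFL22 and RALFL33 encode peptides bound by FERONIA. RALFL22 (AT3G05490, chromosome 3), described after its values were seen, measured 10.83, 10.80 and 10.96 in Col, 11.06, 11.11 and 11.44 in brm-1, 10.94, 11.16 and 11.05 in clf-29, and 10.82, 10.86 and 10.89 in brm-1 clf-29. The single mutants were both higher in mean than Col and the mutant of both genes was not. The difference from Col was 0.34 ± 0.11 in brm-1 (adjusted p = 0.172), 0.19 ± 0.11 in clf-29 (0.557) and -0.01 ± 0.11 in brm-1 clf-29 (0.986). RALFL33 lay between 10.85 and 11.45 on the 12 arrays. It was lower in brm-1 clf-29 than in brm-1 by 0.40 ± 0.11 (adjusted p = 0.204), and passed over replicates 1 and 2 (0.0209). RALFL24 and RALFL31 differed from Col in brm-1 by 0.34 ± 0.14 and 0.31 ± 0.14 with adjusted p-values of 0.316 and 0.373. In brm-1 clf-29, RALFL31 differed from Col by 0.43 ± 0.14 (adjusted p = 0.106), and passed over replicates 1 and 2 (0.0497).

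The LCR genes divided into 2 genes far above background and 6 at or near it. LCR69 (AT2G02100) measured 12.82, 12.79 and 12.42 in Col, 12.73, 12.67 and 12.41 in brm-1, 12.64, 12.56 and 13.05 in clf-29, and 12.83, 12.88 and 12.93 in brm-1 clf-29. These defensin arrays stayed within a narrow band, and the 95% intervals of the differences from Col were -0.41 to 0.26 in brm-1, -0.26 to 0.41 in clf-29 and -0.13 to 0.54 in brm-1 clf-29. None of the 3 intervals reached a change of 1 on the log2 scale.

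LCR68 (AT2G02130) measured 12.29, 12.42 and 12.69 in Col, 11.93, 12.27 and 12.51 in brm-1, 12.69, 12.45 and 12.60 in clf-29, and 11.84, 12.20 and 12.11 in brm-1 clf-29. The brm-1 clf-29 arrays were below those of Col and of clf-29, and those of brm-1 overlapped with Col. brm-1 clf-29 differed from clf-29 by -0.53 ± 0.16 with an adjusted p of 0.158, or 0.0382 with the replicate block, the 1 member called in that comparison with the block. It differed from Col by -0.42 ± 0.16, with an adjusted p of 0.174. LCR68 was named after its values were seen.

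LCR67 (AT1G75830, chromosome 1), named PDF1.1 as well, measured 0.98, 4.42 and 2.71 in Col, 7.26, 2.30 and 6.38 in brm-1, 0.61, 3.10 and 5.26 in clf-29, and 8.15, 6.05 and 2.63 in brm-1 clf-29. On 4 of the 6 arrays with the brm-1 mutation it was well above the background line, and on the other pair it was below. The differences of 2.61 ± 1.63 in brm-1 and 2.91 ± 1.63 in brm-1 clf-29 had adjusted p-values of 0.56 and 0.391, and Col was at background. The remaining 5 LCR genes ran from -0.45 to 5.32 on the 12 arrays.

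The receptors and processing enzymes of these peptides were measured in part. The lists of their symbols were chosen with earlier results of these data known, so counts called on a list describe its genes only. Of 13 RALF receptor and co-receptor symbols, 4 were measured and none was called. FER itself lay between 11.07 and 11.65 on all 12 arrays and differed from Col by 0.12, -0.01 and -0.06 in brm-1, in clf-29 and in brm-1 clf-29. THE1, whose kinase binds the RALFL34 peptide, differed by -0.23 ± 0.17, -0.44 ± 0.17 and -0.60 ± 0.17, with an adjusted p of 0.0638 for the last. ANX1 and ANX2, which act in pollen tubes, were at background.

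Of 19 CLE receptor and partner symbols 4 were measured, and 1 was called: ACR4 (CR4 in RefSeq), a receptor kinase linked to CLE40 signalling in the root, had means of 6.15 in Col, 7.05 in brm-1, 6.44 in clf-29 and 7.11 in brm-1 clf-29. It rose in brm-1 clf-29 by 0.97 ± 0.23 with an adjusted p of 0.0281, and lost the call without Col replicate 2 or 3 or brm-1 clf-29 replicate 2 or 3, with only replicates 1 and 2, and with only the compared genotypes, the adjusted p-values reaching 0.106. MOL1, a receptor-like kinase of the vascular cambium, differed by -0.60 ± 0.16 in brm-1 and by -0.47 ± 0.16 in brm-1 clf-29, with adjusted p-values of 0.0901 and 0.118. Of the EPF peptides and their receptors only STOMAGEN, which promotes stomata, was measured, and it differed by -0.01, -0.17 and -0.36. None of the 12 symbols of the IDA abscission pathway was measured.

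Of 13 symbols for peptide processing 6 were measured, and 2 fell in brm-1 and in brm-1 clf-29, both subtilisin-like proteases. Of all genes, 1.86% and 4.99% were called in these comparisons with Col, and 1.47% in brm-1 clf-29 against clf-29. With so few genes, on a list chosen with earlier results known, the counts are not a result about peptide processing. SBT4.12, one of the proteases known to cleave the IDA precursor, had means of 10.44 in Col, 8.64 in brm-1, 10.27 in clf-29 and 9.17 in brm-1 clf-29. It fell in brm-1 by 1.79 ± 0.16 with an adjusted p of 9.47e-05, and in brm-1 clf-29 by 1.27 ± 0.16 with 0.000686, and it was called in all 23 alternative fits of both comparisons. SBT3.5 fell by 1.40 ± 0.29 in brm-1 (adjusted p = 0.0281) and by 1.59 ± 0.29 in brm-1 clf-29 (0.00768). The first of these was lost without any 1 of the Col arrays or without brm-1 replicate 1 or 3, and without the variance trend, with adjusted p-values up to 0.149. Against clf-29, both were also lower in brm-1 clf-29 and passed (adjusted p = 0.00427 and 0.0317), the SBT3.5 call being lost without Col replicate 1 or 2, brm-1 replicate 1, any 1 clf-29 array, or brm-1 clf-29 replicate 1 or 3, with only the compared genotypes, and without the variance trend, with differences from -1.60 to -1.09 over the alternatives and adjusted p-values up to 0.133. In the same comparison SOL1 rose by 0.85 ± 0.17 with an adjusted p of 0.0306. The call was lost without Col replicate 1 or 2, clf-29 replicate 1 or 3, or any 1 brm-1 clf-29 array. It was also lost with only the compared genotypes and without the variance trend, the adjusted p-values reaching 0.159. The SOL1 meant on the list is a carboxypeptidase that trims CLE precursors. The measured gene was matched to it by name only, and its locus was not checked. Neither S1P, which cleaves RALF precursors, nor the other measured proteases were called.

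Of 33 jasmonate and ethylene regulators of defensin genes only EIN3, a transcription factor of the ethylene pathway, was measured. It had means of 10.63 in Col, 10.42 in brm-1, 10.36 in clf-29 and 10.11 in brm-1 clf-29, and it fell in brm-1 clf-29 by 0.52 ± 0.12 with an adjusted p of 0.023. The call was lost without any 1 Col array or without brm-1 clf-29 replicate 1 or 2, and without the variance trend, with adjusted p-values up to 0.0907. Of 9 further symbols listed as jasmonate and ethylene defence markers 2 were measured, the thionins THI2.1 and THI2.2. Whether THI2.2 reports that pathway in these seedlings was not tested. The THI2.2 means were 7.60 in Col, 8.53 in brm-1, 8.89 in clf-29 and 9.20 in brm-1 clf-29. Its rise in brm-1 clf-29 was 1.60 ± 0.42 with an adjusted p of 0.0488, a call that 11 of the 23 alternative fits kept. It was lost without any 1 array of Col or clf-29, brm-1 replicate 2, or brm-1 clf-29 replicate 1 or 2, with an offset of 16, with robust eBayes and without the variance trend. THI2.1 had means between 2.60 and 5.62 and was not called. No marker of the salicylate pathway among 13 symbols was measured.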

How the data were processed

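Expression was measured on 12 Affymetrix ATH1 arrays. The authors deposited log2 MAS5 signals, made with the affy package in R (versions not given in the sources used here), and each array has a 2% trimmed mean of 500.0 on the linear scale. Because MAS5 scales each array to 1 level, a shift of all transcripts is not visible. Of 22810 probe sets, 13513 carry 1 gene symbol, 503 several and 8794 none in the platform annotation. Where several single-gene probe sets named 1 gene, the brightest on average was kept, leaving 13356 genes. Of the 30 members, 28 matched RefSeq by gene ID and 2 by symbol.

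The test was limma’s (version 3.58.1, R 4.3.3), two-sided, with a mean for each genotype, 8 residual degrees of freedom over the 12 arrays, a variance trend in eBayes, and Benjamini-Hochberg adjustment across all genes. The fit was tested on simulated data. Each simulated array was drawn independently, so the shared deviations of replicates described below were not covered. Precision is limited by the 3 arrays per genotype. Arrays with the same replicate number deviated together from their genotype means in all 18 pairs (r 0.20 to 0.71), so the replicate block is reported beside results it changes. The labels do not say what the number marks.

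Named genes were the called members, the member of each family with the highest signal, members listed by the study as changed in H3K27me3, and up to 5 non-overlapping members per mutant. The members and lists were chosen with earlier results of these data known. The alternatives were quantile normalization, median centring, an offset of 16, genes above the median, eBayes without a trend or robust, only the compared genotypes, the replicate block, replicate 3 as a term, replicates 1 and 2, every probe set, each array left out, and the 1.5-fold criterion. No sequences are shown.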

Additional observations from a re-analysis of the deposited data

Results flagged for a closer look

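RALFL22 was flagged because its arrays moved in opposite directions when the brm-1 mutation was set against its 2 backgrounds. In the wild type background all 3 brm-1 arrays were above Col, with a difference of 0.34 (adjusted p = 0.172). In the clf-29 background all 3 brm-1 clf-29 arrays were below clf-29, with a difference of -0.19 (adjusted p = 0.511). Neither was called, and 20.6% of all genes had arrays that did not overlap between brm-1 and Col. The share that did not overlap between brm-1 clf-29 and clf-29, or moved in opposite directions, was not counted. Whether the pattern is unusual among all genes was therefore not tested. The difference between both effects is the interaction, -0.53 ± 0.15, with an adjusted p of 0.725 (0.00461 before adjustment), so it did not pass.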

How the results depend on the processing

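Counts of called peptide genes moved with the settings. For brm-1 against Col (1 called), quantile normalization and eBayes without a trend gave 0, centring each array on its median 2, the replicate block 3, replicate 3 as a term 6, and replicates 1 and 2 alone 2. For clf-29 against Col (0 called) the replicate block gave 3, replicate 3 as a term 4, and replicates 1 and 2 alone 1. For brm-1 clf-29 against Col (3 called), eBayes without a trend gave 0 and the replicate block kept the same 3 genes. Against clf-29 (0 called) the replicate block and replicate 3 as a term each gave 1, and against brm-1 (0 called) replicate 3 as a term and replicates 1 and 2 alone each gave 1. The replicate block changed no call beyond these. The 1.5-fold criterion gave 11, 10, 13, 12 and 11 in these 5 comparisons. Leaving out 1 array gave 0 to 2 for brm-1, 0 to 2 for clf-29, 0 to 3 for brm-1 clf-29, 0 to 1 against clf-29 and 0 to 0 against brm-1. The interaction gave 0 members under every setting run. Calls among all genes moved as well. Against Col the main fit called 249 genes in brm-1, 126 in clf-29 and 667 in brm-1 clf-29. The replicate block called 638, 465 and 1395, replicate 3 as a term 730, 586 and 1553, and replicates 1 and 2 alone 671, 735 and 1529. Against clf-29 the main fit called 196, the block 543 and replicate 3 as a term 605. Against brm-1 the main fit called 29, replicate 3 as a term 253 and replicates 1 and 2 alone 359.

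With only genes above the median of all genes, CLE41 was the 1 CLE gene left, so the values of 0.46 in brm-1, 0.51 in clf-29 and 0.70 in brm-1 clf-29 are its own differences and not those of the family. In brm-1 clf-29 the CLE median was -0.09 with members above background, and from -0.11 to 0.12 with 1 array left out. The RALFL median there was 0.20 with genes above the median and 0.10 with members above background. Median centring moved all genes by 0.11, 0.04 and 0.10 in the 3 mutants. The 18 named differences kept their direction under every alternative, with 24 calls lost and 16 gained among their settings. The constant direction was largely fixed in advance. Except for CLE44 in clf-29, their arrays did not overlap with Col, so leaving out 1 array could not reverse them. The replicate block, replicate 3 as a term, the eBayes settings, every probe set and only the compared genotypes leave a difference unchanged. Genes at background limit what 3 arrays per genotype can show.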
